A study of Mus musculus with 10 samples.

Results

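The somatostatin neurons of the paraventricular hypothalamus (PVH) described here are the cells that the authors' clustering placed in clusters 7 and 8. They were 77 of the 706 cells in the authors' table, 35 in cluster 7 and 42 in cluster 8, and are called *Sst* neurons below. They were set against the 587 cells of the other 10 PVH clusters, and the 42 cells of clusters 5, 6 and 11, which the study does not count as PVH, were left out. All cells came from male offspring of *Agrp-IRES-Cre* mice crossed with Ai9 mice, more than 7 weeks old and of a single condition. *Agrp-IRES-Cre* drives recombination in the AGRP neurons of the arcuate nucleus, and Ai9 is a reporter that then makes the red protein tdTomato. The labels describe the picked cells as labelled neurons with tdTomato as the reporter, whereas the study's methods say that the red axons of AGRP neurons marked the edge of the PVH, so which cells carried the reporter is not settled by the sources. Cells were picked by hand onto 10 plates, and RNA was read as unique molecular identifiers (UMIs), the barcodes that count captured molecules. Which animals filled which plate is not given, so the spread between plates may be technical.

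Somatostatin is a peptide that is known for inhibiting the release of growth hormone from the pituitary, and it is made by neuroendocrine cells beside the third ventricle as well as by neurons elsewhere in the brain. The PVH is a mainly glutamatergic nucleus whose neurons release oxytocin, vasopressin and the releasing hormones of the pituitary. It receives dense input from AGRP neurons, which release neuropeptide Y, and NPY receptor type 1 (*Npy1r*) is one of the receptors for that peptide. *Prdm8*, the other marker of these clusters, encodes a transcriptional regulator.

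*Sst* (ENSMUSG00000004366.4) lies on the minus strand at chr16:23889573-23890958 of GRCm38, in the GENCODE vM21 annotation. Its promoter is a textbook case of control by cyclic AMP through the cAMP response element, a palindrome of 8 bases that reads the same on both strands. The stretch of 30 bases around it, from RefSeq on GRCm38.p6 (minus strand, chr16:23890874-23890903), is shown with TGACGTCA in capitals because this gene defines the cells.
*Sst*: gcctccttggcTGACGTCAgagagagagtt
The element began 48 bases before the RefSeq start site. The GENCODE locus above reaches to 23890958, beyond this stretch, so the annotations place the start differently and the element lies inside the GENCODE gene. The same 8 letters stood in the promoter (250 bases before to 50 after the start) of 549 of 27025 genes, or 2.03%, and of 319 of the 8068 genes with a promoter that entered the fit below, or 3.95%. Among the 34 genes higher in *Sst* neurons that had a promoter in the table, 3 held it (8.82%), namely *Sst*, *Cartpt* and *Scg2*. The motif was chosen from the *Sst* promoter, so the match of *Sst* was given beforehand. These matches are letters in a window and were not tested as binding sites.

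*Sst* neurons were found on 9 of the 10 plates and made up 4.55% to 25.0% of a plate's PVH cells there. Plates whose names begin with Q (4 plates) held 56 of them and the AL and JM plates 21, and plate AL6 held 0 among 69 PVH cells. The 42 cells of cluster 8 came from the Q plates except for 2 cells of plate JM8, so cluster and plate series cannot be told apart for it. A cell of clusters 7 and 8 had 53701 to 545732 UMIs (median 165306) and 2418 to 7116 detected genes (median 4674). A detected gene is one with at least 1 UMI in the cell. Counts were summed per plate and scaled to the total UMIs of the sum, as CPM, and the summed *Sst* neurons of a plate held 257003 to 4469306 UMIs from 3 to 20 cells. The mean ± SD given below is over these 9 plates, on which the other PVH cells numbered 518. Shares of cells are over all 587, so they also count the 69 cells of plate AL6.

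*Sst* itself reached 2945, 10347 and 21182 CPM (lowest, median and highest plate) in *Sst* neurons. In the other PVH cells it was 2.15, 50.6 and 160.8 CPM. The groups did not overlap, and the plate means were 9966 ± 5880 CPM (SD, n = 9) and 47.0 ± 48.7 CPM (SD, n = 9), a log2 fold change of 8.13 with a standard error of 0.66. The clusters were drawn from the genes of these same cells, so this and the differences that follow are descriptions with no test. *Prdm8* (chr5:98167198-98188991, plus strand) was 332.5, 686.0 and 1011 CPM against 1.15, 17.0 and 62.2 CPM, a log2 fold change of 5.44 (standard error 0.57). *Npy1r* (chr8:66697192-66706792, plus strand) was 40.9, 102.5 and 151.8 CPM against 0.0, 2.66 and 11 CPM, a log2 fold change of 5.42 (standard error 0.76). All 3 markers were higher in *Sst* neurons on 9 of 9 plates.

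**Figure D1:**
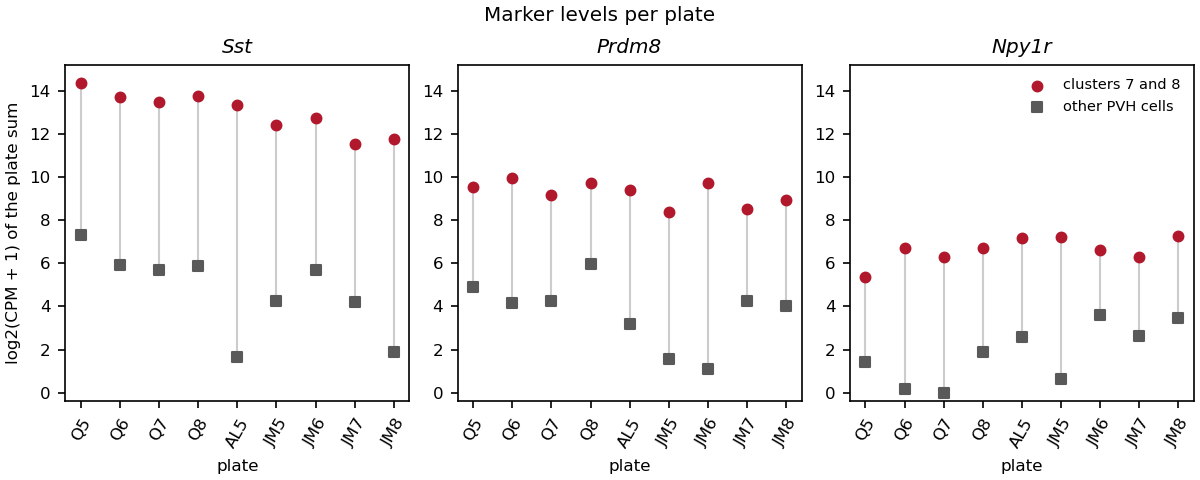
Level of *Sst*, *Prdm8* and *Npy1r* in each of 9 plates (x axis) as log2(CPM + 1) of the plate sum (y axis), with circles for the cells of clusters 7 and 8 and squares for the other PVH cells, and a line that joins the values of a plate. The circle lies above the square on every plate for each gene, and the circles of *Sst* lie higher on the 4 Q plates than on the AL and JM plates.

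The label held unevenly over the cells. All 77 had at least 1 *Sst* UMI, but so did 94.0% of the other PVH cells on the Q plates (236 of 251; 95% Clopper-Pearson interval 90.3 to 96.6%) against 14.3% on the AL and JM plates (48 of 336; 10.7 to 18.5%), and 12 of the 16 control wells of the Q plates. On plate AL6, where no *Sst* neuron was picked, 2 of 69 cells had an *Sst* UMI. Detection of *Sst* did not separate the groups on the Q plates, and the level is used instead. Median depth was 165306 UMIs in *Sst* neurons and 127507 in the other PVH cells, and after thinning each cell to 50000 UMIs the shares with *Sst* were 98.7% and 27.9%. By level, 66 of the 77 cells had at least 1000 CPM of *Sst*, among them all 35 of cluster 7, whose cells ran from 1952 to 37718 CPM. The other 11 cells were all in cluster 8 and on the Q plates (6 on Q7, 3 on Q8, 1 each on Q5 and Q6), with 10.3 to 507.6 CPM and a median of 50.6. The limit of 1000 CPM was set after these values were seen, and no cell lay between 507.6 and 1952 CPM. Such levels also occurred outside the clusters, since 9 of the 587 other PVH cells reached 1000 CPM (3 in cluster 1, 2 in cluster 10 and 4 in cluster 15). Of those 9 cells, 7 had *Prdm8* and 0 had *Npy1r*, *Galr1* or *Hcrtr1*.

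**Figure D2:**
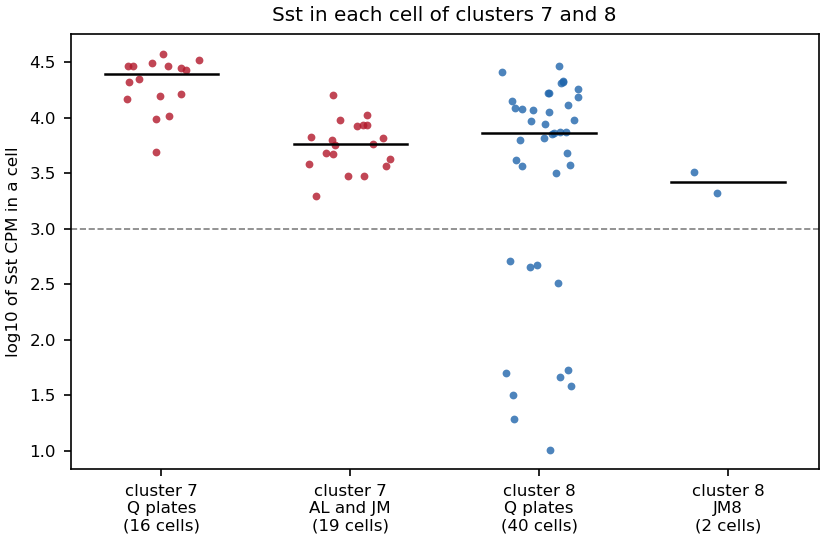
Level of *Sst* in each of the 77 cells (y axis, log10 of CPM) by cluster and plate series (x axis), with the median as a black line and 1000 CPM as a dashed line. All cells of cluster 7 lie above the dashed line, and 11 cells of cluster 8 from the Q plates lie below it.

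The 11 low cells are set beside the other 31 cells of cluster 8. *Prdm8* was detected in 5 of 11 against 25 of 31, *Ghr* in 5 of 11 against 21 of 31, and *Npy1r* in 4 of 11 against 12 of 31. *Galr1* was detected in 1 of 11 against 7 of 31, and *Hcrtr1* in 0 of 11 against 2 of 31. The other PVH cells had *Ghr* in 36.3%, near the 45.5% of the low cells. By Q plate they had *Prdm8* in 18.3 to 46.7% and *Npy1r* in 0.0 to 5.41%. *Trh*, the precursor of thyrotropin-releasing hormone, reached 1000 CPM in 3 of the 11 cells and in 0 of the 31, with a highest value of 10467 CPM. *Cartpt*, the precursor of CART peptide, reached 1000 CPM in 4 of 11 and 1 of 31 cells. *Trh* and *Cartpt* were named here after their values were seen.

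Detection of the other markers differed between the clusters. Cluster 7 had *Prdm8* in 35 of 35 cells and cluster 8 in 30 of 42 (71.4%; 55.4 to 84.3%). Cluster 7 had *Npy1r* in 30 of 35 cells (85.7%; 69.7 to 95.2%) and cluster 8 in 16 of 42 (38.1%; 23.6 to 54.4%). Over all 77 cells the shares were 84.4% for *Prdm8* (74.4 to 91.7%) and 59.7% for *Npy1r* (47.9 to 70.8%). The other PVH cells had 17.0% and 5.28%. In cells thinned to 50000 UMIs the shares were 84.4% against 12.6% for *Prdm8* and 57.1% against 4.09% for *Npy1r*. The share with *Prdm8* averaged 92.6% ± 15.1 (SD, n = 9 plates) and that with *Npy1r* 71.8% ± 25.9 (SD, n = 9 plates). Outside clusters 7 and 8, *Npy1r* was frequent in cluster 13, in 14 of 16 cells (87.5%; 61.7 to 98.4%), so that it did not mark *Sst* neurons alone. *Npy1r* and *Prdm8* were found together in 44 of the 77 *Sst* neurons, and 10 had neither. The intervals cover counting error only.

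Genes were then compared across the table. A gene was called higher in *Sst* neurons where the fitted fold change was at least 4 (log2 of 2) and the level exceeded that of the other PVH cells on every plate, and lower by the same rule reversed. Of 10913 genes in the fit, 41 (0.376%) were higher and 256 (2.35%) were lower. The median log2 fold change of all genes was -0.43, and -0.23 among the 6730 genes with a mean of at least 20 CPM. The sums of *Sst* neurons held 3 to 20 cells a plate and those of the other cells 39 to 74, and the part of this difference in the lower calls was not tested. Of the 256 lower genes, 144 had a mean of at least 20 CPM in the other cells. Without the 11 low cells, a choice made after seeing the data, the counts were 39 and 272, and all 39 were among the 41. Without cluster 1 among the other cells, the counts were 43 and 223. Of these, 30 were among the 41 and 153 among the 256.

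The genes with the largest differences joined a secreted Wnt inhibitor, an extracellular matrix collagen and a retinoic acid enzyme. *Sfrp2*, the secreted frizzled-related protein (chr3:83766321-83774316), was 76.1, 220.2 and 910.5 CPM in *Sst* neurons (lowest, median and highest plate). In the other PVH cells it was 0.0, 0.644 and 4.36 CPM. The groups were far apart (log2 fold change 9.09, standard error 0.48). *Sfrp2* was detected in 46 of 77 *Sst* neurons and 15 of 587 other cells. *Aldh1a1* (chr19:20492715-20643465), which makes retinoic acid from retinal, was 6.84, 113.5 and 240.0 CPM against 0.0, 0.0456 and 2.90 CPM (log2 fold change 8.54, standard error 0.80). It belongs to a family of close copies, so its counts may be shared with a paralog. *Col12a1*, a collagen chain, was 12.4, 71.2 and 195.2 CPM against 0.0, 0.0999 and 3.47 CPM (log2 fold change 8.33, standard error 0.78). *Spink8*, of the Kazal family of serine protease inhibitors, was the most even of the group, at 483.5 ± 139.5 CPM (SD, n = 9) against 3.5 ± 3.19 CPM (SD, n = 9; log2 fold change 7.36, standard error 0.42).

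Several of these genes were rarely detected in other PVH cells. Genes detected in over 40% of *Sst* neurons and under 5% of the other PVH cells numbered 5, namely *Sfrp2*, *Col12a1*, *Arhgap6*, *Kcnh8* and *Rxfp2*, the last 2 in 42.9% each. *Rxfp2*, the receptor for insulin-like peptide 3, was detected in 33 *Sst* neurons and 5 of 587 others. *Col12a1* and *Rxfp2* were each under 5% in 9 of the 10 other clusters, *Sfrp2* in 7. *Kcnh8*, a voltage-gated potassium channel of the ELK family, was 53.1 CPM on average but was higher on 7 of 9 plates only, so it was not among the 41; it is named here after its values were seen. *Lpl*, lipoprotein lipase, had a log2 fold change of 5.57 (standard error 0.93) but was detected in 22.1% of *Sst* neurons.

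Among transcription factors, 43 of the list of 88 entered the fit, and *Prdm8* and *Pbx3* were higher and *Ebf3*, *Bcl11a* and *Foxp2* lower (4.65% and 6.98%). All genes in the fit had shares of 0.376% and 2.35%. *Prdm8* is a marker of these clusters, so its call was given beforehand. *Pbx3*, a homeodomain cofactor, was 116.4 ± 59.3 CPM against 16.9 ± 9.20 CPM (SD, n = 9 each; log2 fold change 2.71, standard error 0.34). The zinc finger genes *Zic4* and *Zic5* were also among the 20 largest differences, with log2 fold changes of 3.58 (standard error 0.67) and 5.14 (standard error 1.00). *Foxp2* was detected in 3 of 77 *Sst* neurons and 341 of 587 other cells. *Otp*, which is needed for the development of neuroendocrine neurons of this region, was detected in 71 of 77 *Sst* neurons and was 1312 ± 799.2 CPM (SD, n = 9) against 653.0 ± 355.6 CPM (SD, n = 9). *Sim1*, a PVH lineage factor, was detected in 31 of 77 (40.3%; 29.2 to 52.1%) against 367 of 587 other cells (62.5%; 58.5 to 66.5%), and its log2 fold change of -1.12 (standard error 0.47) passed no call.

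Among the gene lists, peptide receptors had the highest share of higher calls. Of 54 receptor genes on the list, 17 entered the fit, 5 were higher (29.4%) and 2 were lower (11.8%). Over all genes in the fit 0.376% were higher and 2.35% lower. *Npy1r*, 1 of the 5, is a marker of these clusters, so its call was given beforehand. A gene could enter the fit on its counts in either group alone, which bears on the share of 29.4%. The median log2 fold change of the 17 was 0.93 against -0.43 for all genes. The median was -0.52 on the Q plates alone, -0.73 in sums of at least 5 *Sst* neurons, -0.07 without plate JM7 and 0.49 without plate JM5, so its sign was not stable. *Hcrtr1*, the orexin receptor type 1, was 8.40, 49.9 and 198.4 CPM in *Sst* neurons against 0.0, 6.23 and 25.1 CPM (log2 fold change 4.83, standard error 0.76). *Agtr1a*, the angiotensin II receptor type 1a, was 20.4, 57.8 and 93.4 CPM against 0.459, 2.15 and 8.11 CPM (log2 fold change 4.41, standard error 0.68). *Galr1*, the galanin receptor type 1, was 83.7, 122.0 and 210.3 CPM against 0.544, 8.72 and 20.1 CPM (log2 fold change 4.09, standard error 0.46). For *Agtr1a* and *Galr1* the lowest plate of *Sst* neurons lay above the highest plate of the other cells, while for *Hcrtr1* the ranges overlapped across plates. Single clusters among the other cells came closer. *Galr1* was 42.6, 32.8 and 23.0 CPM in clusters 3, 2 and 4, beside 172.7 in cluster 7 and 58.1 in cluster 8. *Agtr1a* was 34.7 CPM in cluster 10, beside 49.3 in cluster 7 and 54.4 in cluster 8. *Hcrtr1* was 29.2 and 25.3 CPM in clusters 12 and 13, beside 92.2 in cluster 7 and only 0.922 in cluster 8. *Ramp1*, which pairs with the calcitonin receptor-like receptor to bind CGRP, was higher by 2.02 (log2, standard error 0.24).

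The 5 receptor genes called higher (*Npy1r*, *Galr1*, *Hcrtr1*, *Agtr1a* and *Ramp1*) often occurred in the same cell. At least 3 of the 5 were detected in 33 of the 77 *Sst* neurons (42.9%) and in 6 of 587 other PVH cells (1.02%). A cell of cluster 7 had a median of 4 of the 5, and 26 of its 35 cells had at least 3, whereas cluster 8 had a median of 2 and 7 of its 42 cells had at least 3. None of the 5 was detected in 4 *Sst* neurons, all in cluster 8. Since the genes were chosen for being higher, these counts describe the cells and test nothing.

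Receptors that were lower included *Oprk1*, the kappa opioid receptor, at 7.05 ± 11.7 CPM against 78.2 ± 18.0 CPM (SD, n = 9 each; log2 fold change -4.69, standard error 0.84). By cluster, *Oprk1* was 1.02 CPM in cluster 7 and 20.3 in cluster 8, beside 128.3 in cluster 1 and 108.4 in cluster 12. It was also low in clusters 2 (12.8 CPM), 3 (6.35), 13 (0.0) and 14 (9.74). *Calcr*, the calcitonin receptor, had a log2 fold change of -3.71 (standard error 1.01). It was 0.509 and 1.32 CPM in clusters 7 and 8, and as low in clusters 1, 2, 3, 4 and 14 (0.0 to 0.986 CPM). Clusters 13 and 9 had 98.0 and 79.0 CPM. *Mc4r*, the melanocortin receptor on which AGRP acts, was detected in 24 of 77 *Sst* neurons (31.2%; 21.1 to 42.7%) and 24 of 587 other cells (4.09%; 2.64 to 6.02%). It was not called, since it was higher on 7 of 9 plates (log2 fold change 3.51, standard error 1.16), and it is named here after its values were seen. The *Mc4r* share was 54.3% in cluster 7 (36.6 to 71.2%) and 11.9% in cluster 8 (3.98 to 25.6%).

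The growth hormone axis was represented on both sides. Growth hormone acts through its receptor (*Ghr*), which signals by JAK2 and the STAT5 factors, and somatostatin neurons are part of the loop by which it limits its own release. Of 23 genes on the list 13 entered the fit, *Ghr* and *Igfbp5* were higher (15.4%) and *Prlr* was lower (7.69%). All genes in the fit had shares of 0.376% and 2.35%. The list had a median log2 fold change of -0.46, which was 0.75 without plate Q8. *Ghr* (chr15:3317760-3583492) was 95.8, 148.2 and 272.4 CPM in *Sst* neurons and 18.9, 36.3 and 50.1 CPM in the other cells, with no overlap between the groups (log2 fold change 2.23, standard error 0.28). Cells with *Ghr* were 35 of 35 in cluster 7, 26 of 42 in cluster 8 and 213 of 587 elsewhere in the PVH. *Igfbp5*, which binds insulin-like growth factors, was 49.5 ± 33.8 CPM against 7.81 ± 5.84 CPM (SD, n = 9 each; log2 fold change 2.86, standard error 0.78). The STAT5 genes missed the call. *Stat5b* was higher on 9 of 9 plates (log2 fold change 1.78, standard error 0.26), and *Stat5a*, with 3.62 (standard error 0.71), was higher on 8 of 9. *Stat5a* overlaps *Stat3* on the other strand, and whether the counting used strand is not given in the sources used here. *Prlr*, the prolactin receptor of the same family as *Ghr*, was detected in 4 of 77 *Sst* neurons and 185 of 587 other cells (log2 fold change -5.92, standard error 1.16).

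**Figure D3:**
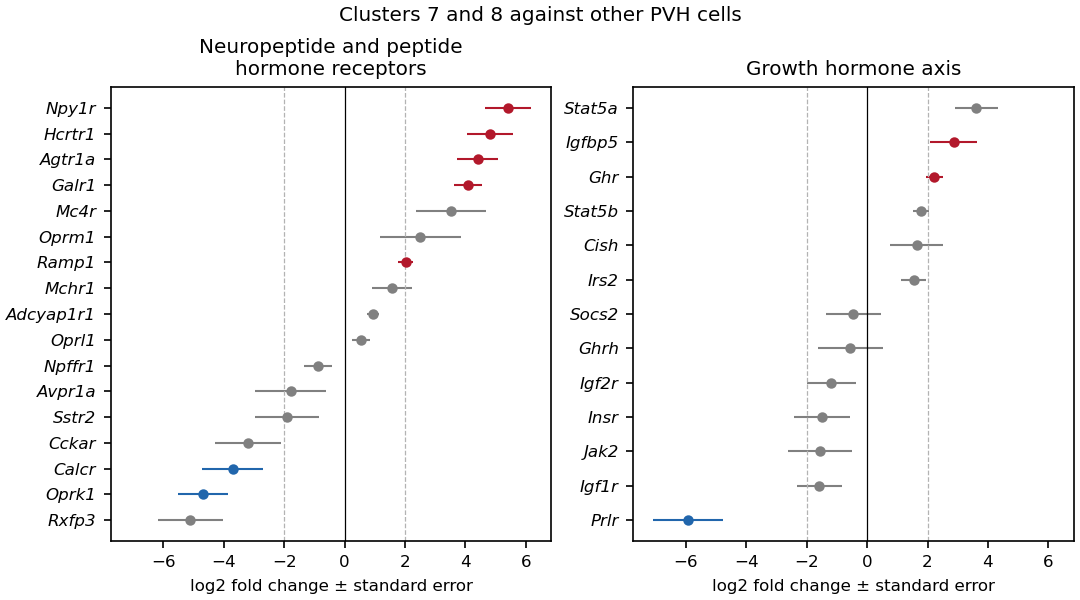
Log2 fold change ± standard error of *Sst* neurons against other PVH cells (x axis) for the 17 peptide receptor genes and 13 growth hormone axis genes in the fit (y axis), with red for genes called higher, blue for lower, grey for neither, and dashed lines at -2 and 2. *Npy1r*, *Hcrtr1*, *Agtr1a* and *Galr1* lie above 4, *Ghr* and *Igfbp5* between 2 and 3, and *Oprk1* and *Prlr* below -4.

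The peptide genes set *Sst* neurons off from the rest in both directions. Of 18 peptide precursors in the fit, 2 were higher (*Sst* and *Cartpt*, 11.1%) and 7 were lower (38.9%), namely *Oxt*, *Avp*, *Crh*, *Pdyn*, *Gal*, *Tac1* and *Adcyap1*. The shares over all genes were 0.376% and 2.35%. *Sst* is a marker of these clusters, so its call was given beforehand. The study names *Oxt*, *Avp*, *Crh* and *Pdyn* among the markers of its clusters, so their lower calls are no independent result. The median of the list was -2.06, and -3.84 without plate Q7. *Cartpt* was 424.8, 596.1 and 2699 CPM against 36.5, 115.4 and 430.3 CPM (log2 fold change 2.13, standard error 0.24) and was detected in 62 of 77 *Sst* neurons. *Crh*, the precursor of corticotropin-releasing hormone, was at 0.0 CPM on the median plate and 2.18 on the highest, with 9 UMIs in all *Sst* neurons. The other cells had 75.3 to 407.0 CPM of *Crh*, though clusters 1, 2, 3, 9 and 15 among them had only 0.0 to 5.28 CPM. *Avp*, vasopressin, was 73.8 ± 63.8 CPM (SD, n = 9) against 13499 ± 9559 CPM (SD, n = 9; log2 fold change -7.63, standard error 0.19).

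*Oxt*, oxytocin, was 33.0 to 1482 CPM on 8 plates and 15023 CPM on plate JM7, where 1 of the 3 *Sst* neurons had 29089 CPM of *Oxt* beside 2978 CPM of *Sst*. Another 2 *Sst* neurons had over 1000 CPM of *Oxt*, with 9452 and 1688 CPM. Both were in cluster 8 and among the 11 low cells, with 10.3 and 453.8 CPM of *Sst*. The log2 fold change of *Oxt* was -7.16 (standard error 1.04), and it was -2.21 without the cells of cluster 1 among the other PVH cells. Nearly all cells had *Oxt* and *Avp* UMIs, 76 of the 77 *Sst* neurons for either gene, so a UMI of these genes does not mark a class here.

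Of 23 genes of peptide processing and dense-core vesicles in the fit, *Scg2* was higher (4.35%) and *Pcsk2* and *Syt7* were lower (8.70%). Among all genes 0.376% were higher and 2.35% lower. The median log2 fold change of the list was -0.16. *Scg2*, secretogranin II of dense-core vesicles (chr1:79434669-79440120), was 4728, 8596 and 11958 CPM against 798.4, 1747 and 2474 CPM, with no overlap between the groups (log2 fold change 2.23, standard error 0.16). The level of *Scg2* was also high in clusters 9, 10 and 13, at 6563, 6303 and 7515 CPM, beside 8353 in cluster 7 and 9335 in cluster 8. *Pcsk2*, a prohormone convertase, was 27.4 ± 27.1 CPM against 135.0 ± 50.5 CPM (SD, n = 9 each; log2 fold change -2.51, standard error 0.55). It was as low in cluster 1 (38.2 CPM) as in clusters 7 (40.3) and 8 (59.5), and 117.9 to 368.7 CPM in the remaining clusters. *Resp18* was higher on 9 of 9 plates by 1.02 (log2, standard error 0.09), below the size needed for a call.

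*Slc17a6*, the vesicular glutamate transporter 2, was detected in 59 of 77 (76.6%; 65.6 to 85.5%) and was 165.8 ± 112.3 CPM against 157.8 ± 68.3 CPM (SD, n = 9 each). *Slc32a1*, the vesicular GABA transporter, and *Gad1* were detected in 0 of 77 cells, a count that permits a true share as high as 3.90%. *Gad2* was found in 5 of 42 cells in cluster 8 and 0 of 35 in cluster 7. *Th*, tyrosine hydroxylase, had a log2 fold change of -3.08 (standard error 0.56). On the Q plates it was 0.7 CPM in cluster 7 and 161.5 CPM in cluster 8. *Gad2* and *Th* were the 2 lower calls among the 6 transmitter genes in the fit (33.3%), and 0 were higher. Among all genes 2.35% were lower and 0.376% higher.

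The list of adhesion and axon guidance genes held calls in both directions. The neuropilins *Nrp1* and *Nrp2*, co-receptors for semaphorins, had medians of 153.5 CPM against 9.53 CPM (log2 fold change 3.94, standard error 0.33) and 102.3 CPM against 16.3 CPM (log2 fold change 2.37, standard error 0.40). With *Sema5a* and *Pcdh19* they made 4 higher calls of 69 (5.8%), beside 9 lower calls, among them *Reln*, with 2 UMIs in all *Sst* neurons and 3757 in the other cells, and *Cbln2*, with 1 and 3368. The median of the list was -1.08.

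Glutamate, GABA and glycine receptors gave 2 higher and 2 lower calls of 37 (5.41% each). Over all genes in the fit 0.376% were higher and 2.35% lower. *Glra3*, a glycine receptor subunit, was 61.6 ± 42.2 CPM against 7.21 ± 6.01 CPM (log2 fold change 3.04, standard error 0.68), and *Grid1*, an orphan of the ionotropic glutamate receptor family, was 58.9 ± 21.0 CPM against 10.9 ± 5.5 CPM (log2 fold change 2.47, standard error 0.46). *Grin3a* and *Grm3* were lower, with log2 fold changes of -4.67 and -3.03. Among small-ligand receptors *Adora1*, *Hrh1* and *Adra1a* were the 3 lower calls of 11 genes (27.3%), with 0 higher. *Adora1*, the adenosine A1 receptor, had 0 UMIs in *Sst* neurons. Potassium channels gave 0 higher and 3 lower calls of 33 (9.09%), namely *Kcna4*, *Kcnip4* and *Kcnd2*. The sodium, calcium, HCN and TRP channels gave 0 higher and 1 lower call of 37 (2.7%), *Trpc5*. The 2.7% and the counts of 0 are close to the shares over all genes. *Calb1*, *Hpca* and *S100a10* were the 3 lower calls of 14 calcium-binding proteins (21.4%), with 0 higher. *Calb1* had a mean of 56.0 CPM in cluster 7 and 385.0 CPM in cluster 8 on the Q plates. Its log2 fold change of -2.22 (standard error 0.34) was -0.79 with cluster 8 alone on those plates. *S100a10* was 13.5 ± 17.6 CPM against 215.2 ± 84.9 CPM (log2 fold change -4.56, standard error 0.61). None of 14 steroid and thyroid hormone receptors was called, and *Nr3c1*, the glucocorticoid receptor, was higher on 8 of 9 plates by 1.65 (log2, standard error 0.34). By cluster, *Nr3c1* was highest in cluster 10, at 545.0 CPM, beside 108.0 in cluster 7 and 280.2 in cluster 8. Clusters 9 and 15 had 118.6 and 105.9 CPM, and clusters 1 to 4 had 0.46 to 10.6 CPM.

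Immediate early genes are switched on in neurons by activity and by handling of tissue. Of 12 in the fit *Arc* alone was called (8.33%, against 2.35% lower over all genes), as lower, on 29 UMIs in *Sst* neurons. *Fos* was 455.1 ± 288.0 CPM against 336.3 ± 215.2 CPM (SD, n = 9 each; log2 fold change 0.42, standard error 0.16). Markers of glia, vessels and ependyma were low in both groups. Their 15 genes summed to 3.52 to 47.0 CPM in *Sst* neurons and 27.4 to 82.3 CPM in the other cells, and 9 of them, *Gfap*, *Gja1*, *Olig2*, *Ctss*, *Aif1*, *Cx3cr1*, *Cldn5*, *Flt1* and *Rax*, had no UMI in any *Sst* neuron. The 6 arcuate and inhibitory markers summed to 0.0 to 76.1 CPM against 28.2 to 106.8 CPM. *Npy* had no UMI in *Sst* neurons and *Agrp* was detected in 4 of 77. *Pomc* was detected in 38 of 77, beside 241 of 587 other cells. The 10 pan-neuronal genes summed to 5603 to 7800 CPM, a range close to the 5630 to 7958 CPM of the other cells, and 0 of the 10 was called.

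**Figure D4:**
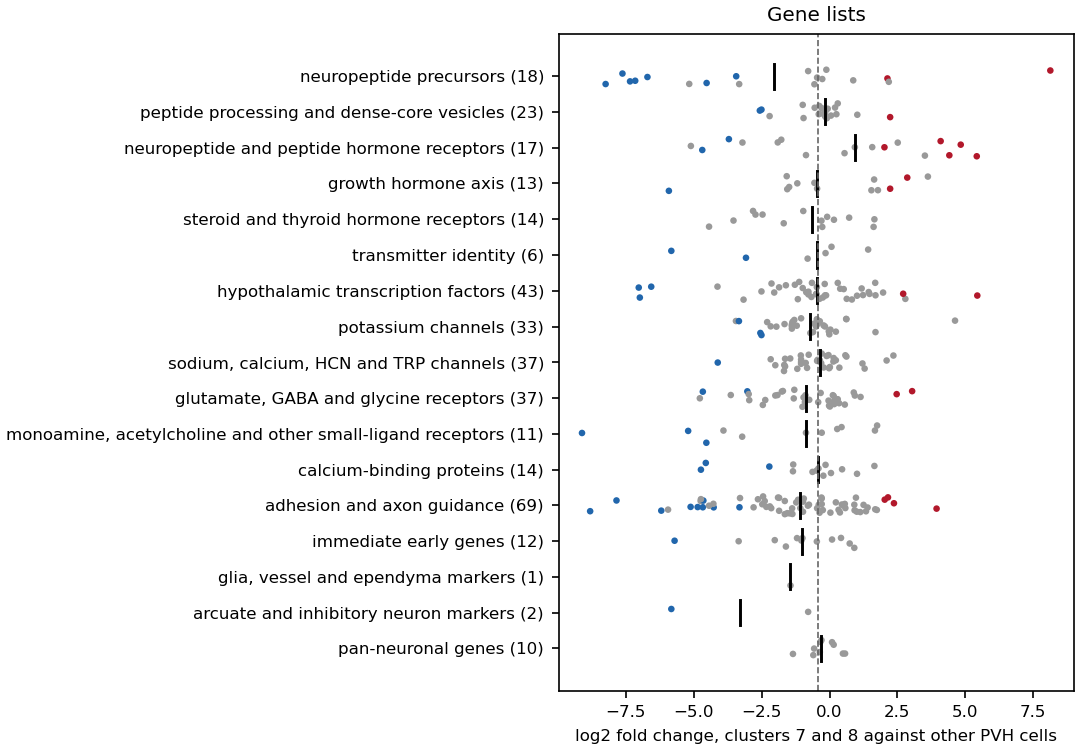
Log2 fold change of *Sst* neurons against other PVH cells (x axis) for the genes of 17 lists (y axis, number of genes in the fit in brackets), with red for genes called higher, blue for lower and grey for neither, a black bar for the median of the list and a dashed line for the median of all genes. Peptide receptors have the rightmost median, 0.93, and the pan-neuronal genes hold no call. *Adora1*, with no UMI in *Sst* neurons, is drawn at its fitted value, which is no bound.

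Over the 12 PVH clusters, the genes of at least 20 CPM whose profile was most like that of *Sst* were *Spink8* (Pearson's r = 0.91 over 12 cluster means), *Ccdc30* (0.89), *Agtr1a* (0.88), *Ift22* (0.87) and *Zic5* (0.87). The clusters share plates and depth, and r is given as a description. The profiles of clusters 7 and 8 correlated at 0.847 over 10913 genes, but each was about as close to cluster 1 (0.845 for cluster 7 and 0.858 for cluster 8). The clusters differ in depth and number of cells, whose part in these values was not tested.

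Clusters 7 and 8 differed from each other in a part of the shared profile. On the 4 Q plates, where both had at least 3 cells, 133 of 10913 genes (1.22%) were higher in cluster 7 on every plate and at least 4-fold higher on average, and 392 (3.59%) were so in cluster 8. The average was taken on log2(CPM + 1), and the sums of cluster 7 rest on 3 to 5 cells a plate. Of the 41 genes higher in *Sst* neurons, 6 were higher in cluster 7 by this rule, namely *Sfrp2*, *Aldh1a1*, *Zic5*, *Hcrtr1*, *Galr1* and *Arhgap6*, and 0 in cluster 8. *Hcrtr1* was 61.5 CPM in cluster 7 and 0.681 in cluster 8, and *Aldh1a1* was 170.6 and 5.05 CPM. *Agtr1a*, in contrast, was detected in 62.9% and 47.6% of their cells. When cluster 8 alone was set against the other cells, 14 of the 41 genes were called higher, and 28 for cluster 7 alone. *Rasgrp1*, an activator of Ras whose log2 fold change was 4.03 (standard error 0.75) in both clusters together, turned to -1.76 in cluster 8 alone.

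*Sst* differed between plate series within the neurons. The 4 Q plates had 11611 to 21182 CPM and the 5 AL and JM plates 2945 to 10347 CPM, without overlap. In cluster 7 alone, the cells of the Q plates had a median of 24574 CPM (16 cells) and those of the AL and JM plates 5817 CPM (19 cells). Of all 10913 genes, 440 (4.03%) were likewise higher in *Sst* neurons of every Q plate than of every AL and JM plate, and of the 41 genes called higher only *Sst* was. The reverse order held for 5 of the 41 and for 387 of all genes. The *Sst* neurons of the Q plates had a median of 190158 UMIs and those of the AL and JM plates 79886, and the part of depth in the *Sst* difference was not tested.

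The total RNA counts of the cells are given as a description, since the clusters were drawn from the counts of these cells and the spike-in RNA (ERCC) set the noise level for choosing genes. The median *Sst* neuron of a plate had 69514 to 203411 gene UMIs (mean 131148 ± 56583, SD, n = 9 plates), and the median other PVH cell 69141 to 308829 (174315 ± 103362, SD, n = 9 plates). *Sst* neurons were lower on 8 of 9 plates, with a mean log2 ratio of -0.29 ± 0.26 (SD, n = 9). Per spike-in UMI the log2 ratio was -0.38 ± 0.29 (SD, n = 9), and for the spike-in UMIs themselves it was 0.05 ± 0.14 (SD, n = 9). The ratio of gene UMIs depended on which cells were compared. Without cluster 1 among the other cells it was -0.04, and -0.09 per spike-in UMI. With cluster 7 alone the values were -0.13 and -0.11.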

How the data were processed

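The deposited tables give, for every gene in every well, raw UMI counts (48397 genes, 960 wells of 10 plates) and per ERCC spike-in, and the authors' table of 706 cells kept after quality control, with their cluster numbers. Per the submitters' processing notes, Trimmomatic 0.36 and STAR 2.5.3a were used. The notes name the mouse build GRCm38, and the annotation and strand used for counting are not given in the sources used here. The series text speaks of fewer plates than the labels list, and labels and methods differ on the sequencing kit. Cells with cluster number 7 or 8 were the members. The members and gene lists were chosen with earlier results of these data known.

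Counts were summed per plate over members and over other PVH cells, where a plate had at least 3 members (9 plates). edgeR 4.0.16 (TMM, filterByExpr, quasi-likelihood fit with the plate as a block) gave log2 fold changes and standard errors under R 4.3.3. No p-value was taken from it, since the clusters were made from the same genes. DESeq2 1.42.0 was an alternative. Named genes were the 3 markers, the 20 largest higher and 10 largest lower calls of at least 20 CPM, up to 6 per gene list (called genes first), and the 5 genes most like *Sst* over clusters, and a gene or count outside this rule was picked after its values were seen. Of the 112 genes so named, all 112 were placed on GENCODE vM21. An exact sign-flip test of total UMIs over plates had been planned, and its p-values are not reported, because the clusters were made from the same counts. Shares have exact Clopper-Pearson intervals at 95%, which cover counting error only, and a count of 0 was read against 3 counts. Subtracting the mean plus 2 SD of the 4 control wells of a plate, an alternative here, gave the authors' totals for 706 of 706 cells. No cell name occurred on more than 1 plate. No doublet caller was run on the hand-picked cells. Scripts were tested on simulated data. Python 3.11.15, numpy 2.4.6, pandas 2.3.3, scipy 1.17.1 and matplotlib 3.10.9 were used. Alternatives were another tool, filter, weighting or block, a control-well subtraction, subsets of cells, clusters and plates, and leaving out each plate.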

Additional observations from a re-analysis of the deposited data

Results flagged for a closer look

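Among 33 sets of plate values of named genes in *Sst* neurons, 8 had 1 plate far from the other 8. Chance alone sets apart about 1 in 20 sets of normally distributed values. That rate does not hold for genes at 0 on most plates, where a single plate with UMIs stands apart by construction.
*Oxt* was 15023 CPM on plate JM7, where 1 of the 3 cells had 29089 CPM and the others 28.8 and 0.0, and *Avp* was 223.6 CPM on plate Q8. *Arhgap6* was 127.5 CPM on plate Q6.
For genes that were at 0 on most plates of *Sst* neurons, the highest plate stood apart. *Crh* was 2.18 CPM on plate Q8 and at most 0.584 CPM elsewhere, and *Adcyap1* was 3.89 CPM on plate JM7 and at most 0.224 CPM elsewhere. Those found on 1 plate were *Wnt5a*, with 2.77 CPM on plate JM6, *Reln*, with 0.447 CPM on plate Q7, and *Cbln2*, with 0.224 CPM on plate Q7.

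Outside the authors' table of cells, 6 wells had at least 1000 CPM of *Sst*, with 2150 to 11408 CPM and 14464 to 49910 UMIs in all. *Prdm8* was detected in 5 of the 6 and *Npy1r* in 5, and 1 of them lay on a Q plate. Control wells held at most 9 *Sst* UMIs. The lowest cell of the authors' table had 50646 UMIs, above all 6 wells.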

How the results depend on the processing

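Leaving out 1 plate gave 40 to 50 higher and 285 to 349 lower genes, and log2 fold changes of 7.8 to 8.3 for *Sst*, 5.13 to 5.67 for *Prdm8* and 4.99 to 5.78 for *Npy1r*. The cause of the changes below was not tested. DESeq2 called 42 genes higher, among them all 41. Genes called higher numbered 66 in sums of at least 5 *Sst* neurons and 103 on the Q plates alone. Genes called lower numbered 563 with no filter on low counts, 446 in sums of at least 5 *Sst* neurons, 1285 with cluster 8 alone, 954 on the Q plates alone and 661 on the other plates alone. *Npy1r* had a log2 fold change of 3.8 with each other cluster weighted equally and 7.01 on the Q plates, which was also the median of the 3 markers there. *Rasgrp1* was -1.76 with cluster 8 alone. Fits of cluster 8 alone rest on the 4 Q plates, and those of cluster 7 alone also leave out plate JM8. On the AL and JM plates 100% of *Sst* neurons had *Prdm8* and 90.5% *Npy1r*.

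Medians of gene lists (log2 fold change) moved most. Without the plate as a block they were -0.29 for peptide precursors, 0.62 for the growth hormone axis, 0.23 for transcription factors, -0.14 for potassium channels, -0.26 for glutamate, GABA and glycine receptors, -0.34 for adhesion genes and -1.89 for arcuate and inhibitory markers. In sums of at least 5 *Sst* neurons they were -0.32 for peptide precursors, -0.73 for peptide receptors and -0.1 for pan-neuronal genes. With cluster 7 alone they were -4.92 for peptide precursors, -0.38 for peptide processing, -0.17 for transcription factors, -1.29 for potassium channels, -0.9 for the other channels, -2.32 for immediate early genes and -5.7 for arcuate and inhibitory markers. With cluster 8 alone they were -0.37 for peptide receptors, 0.55 for the growth hormone axis, -0.05 for calcium-binding proteins, 0.21 for immediate early genes and -3.63 for the glial gene in the fit. On the Q plates they were -0.52 for peptide receptors and -0.09 for pan-neuronal genes. On the AL and JM plates they were -6.01 for peptide precursors, 0.09 for peptide receptors, 1.38 for the growth hormone axis, -0.84 for calcium-binding proteins and -10.06 for arcuate and inhibitory markers. With *Sst* neurons of at least 1000 CPM of *Sst*, chosen after seeing the data, peptide precursors were -4.99. Leaving out 1 plate gave -3.84 to -1.04 for peptide precursors, -0.07 to 1.03 for peptide receptors and -0.82 to 0.75 for the growth hormone axis.

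The log2 ratio of gene UMIs was -0.41 with plates of at least 5 *Sst* neurons, -0.13 with cluster 7 alone and -0.04 without cluster 1, and per spike-in UMI it was -0.39, -0.11 and -0.09. The ratio of spike-in UMIs was -0.02 with cluster 7 alone. Counting every alternative of the main results, 481 values stayed within the spread between plates or 1.5 times the count, 46 moved further, 1 changed sign, and 6, all of them ratios of gene UMIs, lost an exact test that is not reported because the clusters came from the same counts.

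Each plate held both kinds of cells, so the fit with the plate as a block is a paired one. Sums of 3 to 6 cells on the 5 AL and JM plates limit the precision for rare transcripts, and the plate series differ in depth.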
